A study of Mus musculus with 16 samples.

Results

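The genes described here are 10 mouse genes of the acetylcholine receptor and the neuromuscular junction, chosen by symbol out of 48432 gene identifiers in the deposited table. They are the receptor subunit genes Chrna1, Chrnb1, Chrnd, Chrng and Chrne, the signalling and clustering genes Musk, Rapsn, Dok7 and Lrp4, and Ache, which encodes acetylcholinesterase. All 10 were listed in every library, none was skipped by Cuffdiff for too many fragments, and all 10 passed the filter on low counts. The choice was by symbol and not by a threshold on measured values, though with earlier results of these data known.

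RNA was sequenced from C2C12 myotubes, a mouse myoblast cell line whose cells fuse into fibres able to contract, after 5 days of differentiation in low horse serum (passages 4 to 8). The stimulated group received electrical pulse stimulation (EPS), square pulses of 6 ms at 1 Hz and 2.75 V/mm with a 0.6% duty cycle and field polarity switched at 0.5 Hz, and the control group received none. Each group held 4 libraries, each deposited as 2 lanes. The stimulation time was not given in the sources used here. The series concerns secretion of GDF15 from contracting muscle, and the comparison used here asks which transcripts differ in stimulated myotubes. The cultures contained 1 cell line and no added motor neurons, as far as the labels say, so these genes were read in muscle cells without a nerve.

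At the vertebrate neuromuscular junction, acetylcholine from the motor nerve opens a receptor channel built from alpha, beta and delta subunits with a gamma subunit in fetal and denervated muscle or an epsilon subunit in innervated adult muscle. Agrin from the nerve binds LRP4, which activates the receptor tyrosine kinase MuSK with the help of the adaptor DOK7, and rapsyn, encoded by Rapsn, anchors the receptors in clusters. In cultured myotubes and denervated fibres the receptor genes are known to be switched on by myogenic factors that bind E-boxes, and electrical activity is known to repress them.

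The sequence before the start of 4 members is shown with matches to the motifs of these factors, and each gene was chosen to stand for a class: Chrna1 is the most abundant subunit gene, Chrng and Chrne encode the alternative fetal and adult subunits, and Musk was the only member with a positive fold change. Each run is the 250 bases before the start in RefSeq's GRCm38.p6 annotation, the patch release of the build (mm10) named for the files, written 5′ to 3′ on the gene's strand. Capitals mark E-boxes (CANNTG) and the N-box core (CCGGAA, either strand), a binding site of ETS factors.
Chrna1 (chr2:73580339-73580588, minus strand): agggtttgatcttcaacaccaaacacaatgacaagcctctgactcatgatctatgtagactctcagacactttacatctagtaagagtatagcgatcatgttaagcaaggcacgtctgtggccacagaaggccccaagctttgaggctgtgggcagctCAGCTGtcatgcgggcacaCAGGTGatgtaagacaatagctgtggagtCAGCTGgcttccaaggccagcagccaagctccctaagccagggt
Chrng (chr1:87205561-87205810, plus strand): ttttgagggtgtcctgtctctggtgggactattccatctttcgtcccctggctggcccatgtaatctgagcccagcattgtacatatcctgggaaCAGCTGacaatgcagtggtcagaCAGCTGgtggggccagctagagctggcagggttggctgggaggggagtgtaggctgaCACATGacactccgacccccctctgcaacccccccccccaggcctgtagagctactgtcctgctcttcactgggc
Chrne (chr11:70619195-70619444, minus strand): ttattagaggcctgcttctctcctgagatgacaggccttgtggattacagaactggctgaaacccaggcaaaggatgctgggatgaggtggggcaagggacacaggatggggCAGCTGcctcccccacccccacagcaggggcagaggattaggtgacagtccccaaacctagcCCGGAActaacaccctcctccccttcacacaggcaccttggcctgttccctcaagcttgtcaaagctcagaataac
Musk (chr4:58285712-58285961, plus strand): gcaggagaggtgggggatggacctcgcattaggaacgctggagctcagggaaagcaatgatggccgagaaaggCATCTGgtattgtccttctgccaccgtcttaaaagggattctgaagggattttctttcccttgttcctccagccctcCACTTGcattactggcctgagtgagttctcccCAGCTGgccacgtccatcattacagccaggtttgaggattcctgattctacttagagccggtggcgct
Chrna1 and Chrng each held 2 copies of CAGCTG, an E-box form bound by muscle factors, and Musk and Chrne held 1 each. The copies lay 87 to 92 and 39 to 44 bases before the start in Chrna1, and 150 to 155 and 127 to 132 bases before it in Chrng. The Chrng window lies inside the gene as the GENCODE annotation places it (87204657 to 87212694), so its distances hold for the RefSeq start only. Chrne was the only member window with a CCGGAA, at 71 to 76 bases before the start. RefSeq windows were found for 7 members (8 windows, since Dok7 has 2), and Chrnd, Rapsn and Lrp4 had no entry. CAGCTG was found in 4 of these 8 windows, against 13% of all 32851 windows of this length, and any CANNTG, which includes CAGCTG, in 7 of 8 against 66.2%. The 4 windows with CAGCTG are the 4 shown above, and those of Chrnb1, Dok7 and Ache, not shown, held none. CCGGAA was found in 1 of 8 against 12% of all windows. A match describes letters in the window and is not evidence of binding.

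Libraries differed in depth. The 7 deep libraries held 12.6 to 20.7 M fragments, while control replicate 2 held 0.354 M (M, mega). Levels are given as CPM, fragments per M fragments. A count of 0 allows up to about 3 fragments, which equals 8.68 CPM in control replicate 2 and at most 0.239 CPM elsewhere, for counting error only. Deviations from the group mean correlated between same-numbered EPS and control libraries (r from 0.214 to 0.3 across genes), so a fit with the replicate number as a block is given beside the fit without it wherever a call differs. Numbers 3 and 4 also correlated across numbers (EPS 3 with control 4 at 0.253, EPS 4 with control 3 at 0.231). What a replicate number marks is not in the labels, so the pairing was inferred from these same data. The labels name no separate cultures within a group, and the p-values therefore cover the spread among these libraries alone, possibly a technical one. The myotube identity was checked with 8 markers, of which Ttn was skipped by Cuffdiff. The other 7 summed to 13377 to 19279 CPM in EPS libraries and 22425 to 25716 CPM in control libraries, none of the 7 was called without the block, and 4 fell with it (Ckm, Mylpf, Tnnt3 and Myh3, adjusted p from 0.00878 to 0.0388). Their part in the results below was not tested. In bulk RNA, fewer myotubes and less of a transcript per myotube cannot be told apart. Of 7 motor neuron markers, Slc18a3, Snap25 and Rbfox3 were at 0 in every library and Chat had 1 fragment in all, with summed levels of 8.39 to 14.4 CPM in EPS and 2.84 to 6.77 CPM in control libraries, mostly from Syn1. Schwann cell markers summed to 90 to 129 CPM in EPS and 58.3 to 87.8 CPM in control libraries, with Sox10 at 0, dividing myoblast markers to 291 to 646 CPM in EPS and 374 to 789 CPM in control, and fibroblast markers to 789 to 1351 CPM in EPS and 813 to 1901 CPM in control. Endothelial markers summed to 1.81 to 18.2 CPM in EPS and 0 to 2.17 CPM in control, and macrophage markers to 2.69 to 28.0 CPM in EPS and 1.67 to 8.52 CPM in control, with Adgre1 at 0. No marker of these lists was called without the block. With it Syn1, Pmp22 and Pdgfra were called higher in EPS (adjusted p = 0.0475, 0.011 and 0.0141) and Dcn lower (adjusted p = 0.0219). Syn1, with 1068 fragments in all libraries, overlaps Timp1 (36728 fragments) on the opposite strand by 4570 bases, so its value is uncertain. The part of these markers in the results was not tested.

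Most members were lower in EPS than in control myotubes, but none passed the test over all genes without the block. Of the 10 members, edgeR's quasi-likelihood test called 0 at an adjusted p under 0.05, where 3.06% of 13987 tested genes were called (2.3% higher and 0.758% lower). Unadjusted p was under 0.05 in 6 members, 5 lower and 1 higher, against 18.5% of all genes (6.33% lower and 12.2% higher). The log2 fold change (EPS over control) was negative in 9 members and positive in Musk. It had a median of -0.53 over the members and 0.01 over all tested genes, 49.1% of which were negative. The 7 myotube markers had a median of -0.54, and with the block 4 of these 7 were called lower. With the replicate block, Chrnd, Chrng, Rapsn and Dok7 fell in EPS (4 of 10 called lower, against 4.78% of all genes called lower, 7.31% called higher and 12.1% called in all). With the block and pair 2 left out, because its control library is shallow, Chrna1 and Lrp4 fell as well (6 of 10 called lower, against 8.23% of all genes called lower, 9.1% called higher and 17.3% called in all). With the block and length offsets the same 6 were called lower, against 6.49% of all genes called lower, 7.18% called higher and 13.7% called in all.

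**Figure D1:**
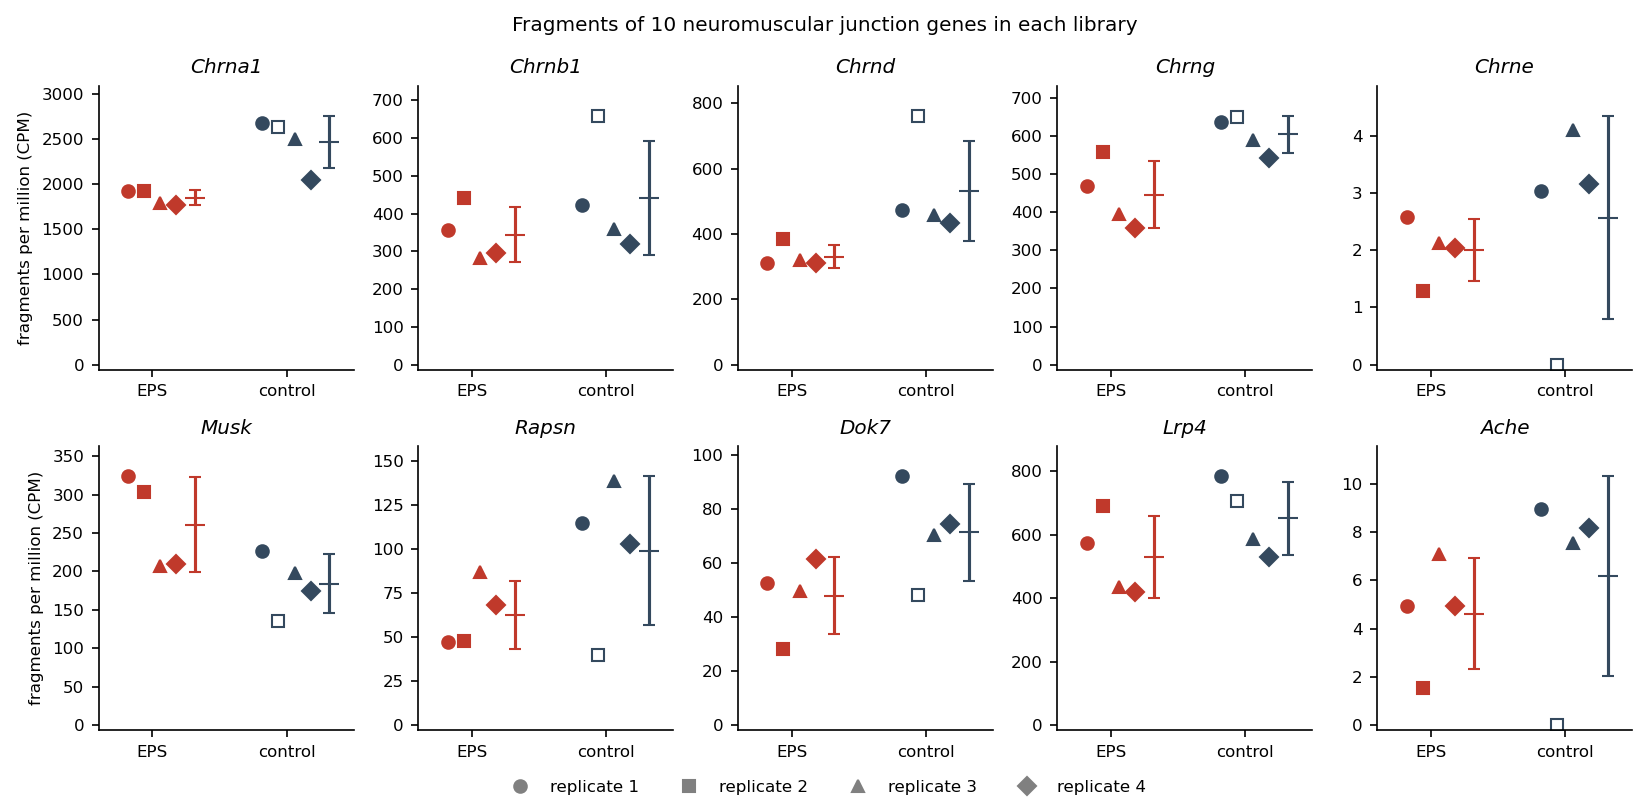
Level in CPM (fragments per M fragments, TMM-scaled, linear axis from 0) of each of the 10 genes in 4 EPS libraries (red, left) and 4 control libraries (dark, right), with marker shape for the replicate number, a hollow square for the shallow control replicate 2, and a bar for mean ± SD. Groups are apart in Chrna1 and Chrnd, and Musk is the gene whose EPS mean (261 CPM) lies above its control mean (184 CPM).

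Among the receptor subunits, Chrna1 encodes the alpha subunit, which carries most of the acetylcholine binding site. Its level was 1922, 1925, 1796 and 1769 CPM in EPS libraries 1 to 4, and 2683, 2634, 2507 and 2047 CPM in control libraries 1 to 4. Every EPS library lay below every control library, with control replicate 4 the closest to the EPS group. The means were 1853 ± 82.2 CPM in EPS and 2468 ± 289.9 CPM in control (SD, n = 4 each), and the EPS libraries were closely grouped. Chrna1 had a log2 fold change of -0.41 (approximate SE 0.17, 95% interval -0.79 to -0.03) with an adjusted p of 0.232 in edgeR, 0.0735 with the replicate block and 0.0389 with the block and pair 2 left out. Chrna1 (ENSMUSG00000027107) lies on the minus strand of chromosome 2, positions 73563215 to 73580338 of mm10 in GENCODE.

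Chrnd, the gene of the delta subunit, had the smallest unadjusted p of the members, 0.0083 in edgeR. It stood at 311, 383, 319 and 309.8 CPM in EPS libraries 1 to 4, and at 472, 761, 459 and 434 CPM in control libraries 1 to 4. No EPS library reached the lowest control library. Control replicate 2, with 268 fragments for this gene, was far above the other controls. The log2 fold change was -0.67 (SE 0.21, interval -1.13 to -0.21, adjusted p = 0.114 in edgeR), and it was -0.46 without control replicate 2 (adjusted p = 0.101). Chrnd fell with the replicate block (-0.64, adjusted p = 0.0135), and DESeq2 called it as well (adjusted p = 0.042), the only member it called where 6.63% of all genes were called (2.1% lower and 4.53% higher).

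Chrng encodes the fetal gamma subunit and lies next to Chrnd. The genes occupy positions 87190607 to 87200070 (Chrnd) and 87204657 to 87212694 (Chrng) of chromosome 1, both on the plus strand. Chrng had 469, 558, 396 and 359 CPM in EPS libraries 1 to 4, and 636, 648, 589 and 542 CPM in control libraries 1 to 4. Only EPS replicate 2 exceeded a control library, replicate 4, so 15 of the 16 pairings of an EPS with a control library had the lower value in EPS. Its log2 fold change was -0.44 (SE 0.18, interval -0.84 to -0.04, adjusted p = 0.228), and Chrng fell with the block (-0.46, adjusted p = 0.0465).

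Chrnb1, the gene of the beta subunit on chromosome 11 (positions 69784036 to 69795943, minus strand), overlapped between the groups. It had 357, 441, 283 and 297 CPM in EPS libraries 1 to 4, and 424, 659, 359.6 and 321 CPM in control libraries 1 to 4. The fitted log2 fold change was -0.34 (SE 0.25, interval -0.89 to 0.21, adjusted p = 0.506 in edgeR). Control replicate 2 weighed on this value, which was -0.10 without it.

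The adult epsilon subunit gene Chrne was low in all libraries. It was counted at 50, 16, 41 and 44 fragments in EPS libraries 1 to 4, and at 56, 0, 52 and 66 fragments in control libraries 1 to 4. These equal 2.57, 1.28, 2.12 and 2.03 CPM in EPS libraries, and 3.03, 0, 4.09 and 3.15 CPM in control libraries. The 0 in control replicate 2 lies under the 8.68 CPM that depth could resolve there, and the other 3 control libraries were all above the 4 EPS libraries. On the log2 scale the fold change was -0.68 (SE 0.37, interval -1.51 to 0.15, adjusted p = 0.367 in edgeR) and was not called under any alternative. Chrne lies on chromosome 11 (positions 70614883 to 70619216, minus strand), and the gene that overlaps it on the opposite strand, 4930544D05Rik, had 0 fragments in all libraries.

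The balance of fetal and adult subunits did not differ detectably. The log2 ratio of Chrng to Chrne fragments (0.5 added to each) was 7.49, 8.72, 7.53 and 7.45 in EPS libraries 1 to 4, and 7.70, 8.84, 7.15 and 7.41 in control libraries 1 to 4. The 7 deep libraries all held a large excess of the gamma transcript. The value of control replicate 2, with 0 Chrne fragments, is set by the number added: it was 8.84 with 0.5 added and 6.85 with 2 added. The EPS mean of 7.80 ± 0.62 and the control mean of 7.78 ± 0.74 (SD, n = 4 each) differed by 0.02, less than the spread between libraries (p = 0.943 in an exact permutation test, two-sided, which cannot go below 0.0286). The difference was 0.48 with 2 added (p = 0.2, exact permutation test) and 0.38 without control replicate 2 (p = 0.514, exact permutation test). The ratios of the other subunits to Chrna1 overlapped between the groups as well. The log2 ratio of Chrng to Chrna1 fragments lay between -2.30 and -1.79 in EPS libraries and between -2.09 and -1.92 in control libraries. That of Chrnd to Chrna1 lay between -2.63 and -2.33 in EPS and between -2.51 and -1.79 in control, and that of Chrnb1 to Chrna1 between -2.66 and -2.13 in EPS and between -2.8 and -2 in control.

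**Figure D2:**
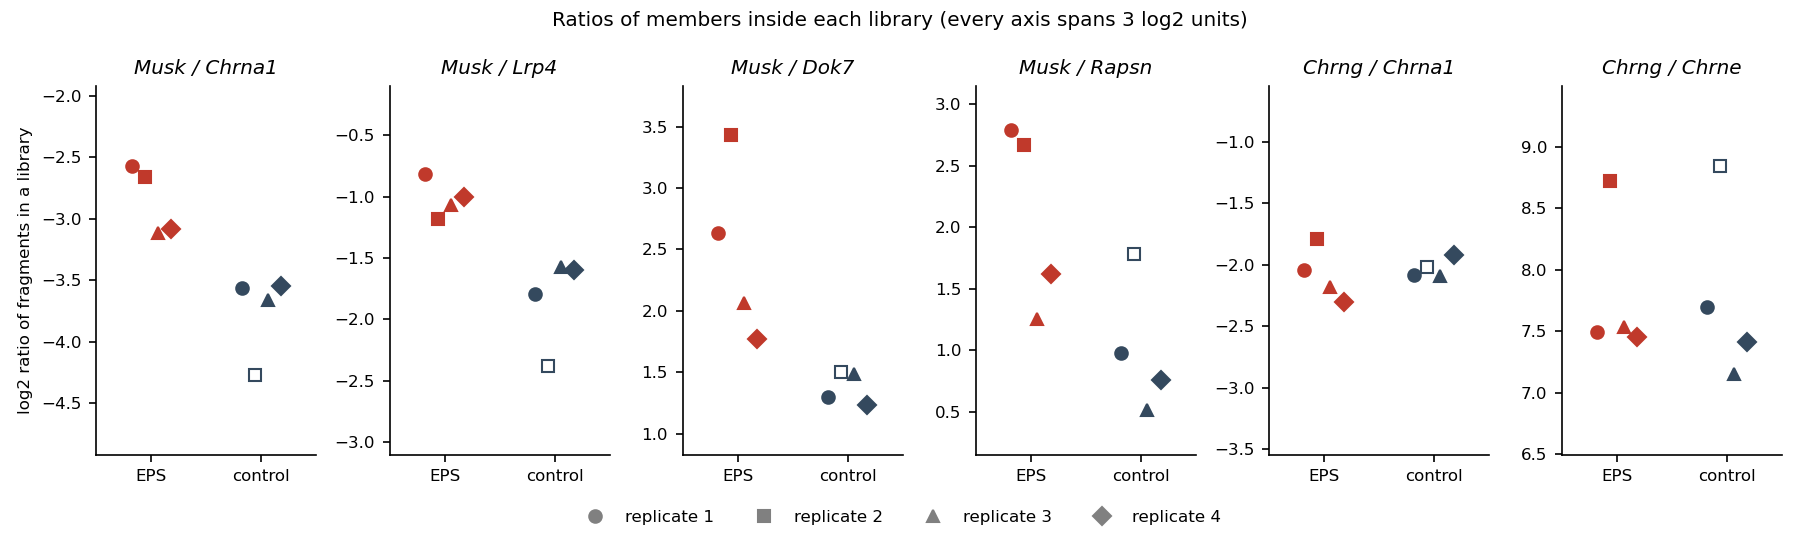
Log2 ratio of the fragments of 2 members inside each library, for 4 EPS libraries (red, left) and 4 control libraries (dark, right, hollow square for the shallow replicate 2), with every axis spanning 3 log2 units and 0.5 added to both counts for Chrng over Chrne. Musk over Chrna1, Lrp4 and Dok7 is higher in every EPS library than in any control library, Musk over Rapsn overlaps through control replicate 2, and the Chrng ratios overlap between the groups.

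Among the clustering and signalling genes, Musk was the exception. It encodes the muscle-specific receptor tyrosine kinase that starts receptor clustering, and it had 324, 304, 207 and 209 CPM in EPS libraries 1 to 4, and 227, 136, 198 and 175 CPM in control libraries 1 to 4. EPS replicates 1 and 2 were above all controls, while EPS replicates 3 and 4 lay below control replicate 1. In all 4 same-numbered pairs the EPS library was higher, with log2 differences of 0.51, 1.16, 0.07 and 0.26 for pairs 1 to 4, where 22% of all genes were higher in every pair. The log2 fold change was 0.49 (SE 0.21, interval 0.01 to 0.96) with an adjusted p of 0.258 in edgeR and 0.120 with the block. Replicates 1 and 2 alone gave 0.72, replicates 3 and 4 alone 0.16, and the fit was 0.27 with the block and pair 2 left out (adjusted p = 0.124). The test of the difference between these sets of replicates gave 0.56 with an adjusted p of 0.541. Length offsets gave Musk 0.40 without the block and 0.35 with it (adjusted p = 0.285 and 0.127 in edgeR). Musk spans positions 58285960 to 58374303 of chromosome 4, plus strand.

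Rapsn encodes rapsyn, the scaffold that anchors the receptor. It stood at 47.1, 47.7, 87.1 and 68.3 CPM in EPS libraries 1 to 4, and at 115, 39.8, 139 and 103 CPM in control libraries 1 to 4. The 3 deep control libraries were all above the 4 EPS libraries, and control replicate 2, with 14 fragments, was below them. Its log2 fold change was -0.74 (SE 0.31, interval -1.42 to -0.06, adjusted p = 0.229), and it was -0.93 without control replicate 2 (adjusted p = 0.0762). Rapsn fell with the block (-0.71, adjusted p = 0.0343) and with the block and pair 2 left out (-0.86, adjusted p = 0.00468). It lies on chromosome 2, positions 91035620 to 91045729, and the antisense transcript Gm13778 that overlaps it had 10 fragments in all libraries together.

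Dok7, the gene of the cytoplasmic adaptor that activates MuSK, gave a like picture at a lower level. It had 52.6, 28.2, 49.8 and 61.5 CPM in EPS libraries 1 to 4, and 92.3, 48.3, 70.5 and 74.7 CPM in control libraries 1 to 4. Without control replicate 2 (17 fragments) the groups did not overlap, and in all 4 same-numbered pairs the EPS library was lower. The fitted log2 fold change was -0.62 (SE 0.25, interval -1.17 to -0.07, adjusted p = 0.210), and Dok7 fell with the block (-0.56, adjusted p = 0.0255). Replicates 1 and 2 alone gave -0.97 and replicates 3 and 4 alone -0.38, a difference with an adjusted p of 0.641. Dok7 lies on chromosome 5, positions 35056766 to 35087839, plus strand.

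Lrp4 encodes the agrin receptor and was the second most abundant member by fragments. It had 572, 691, 434 and 418 CPM in EPS libraries 1 to 4, and 784, 707, 587 and 528 CPM in control libraries 1 to 4. The groups overlapped, and the EPS library was the lower in each same-numbered pair, by 0.03 (pair 2) to 0.46 (pair 1) on the log2 scale. On the log2 scale the fold change was -0.30 (SE 0.22, interval -0.78 to 0.18, adjusted p = 0.498), and Lrp4 fell only with the block and pair 2 left out (-0.42, adjusted p = 0.0194) and with the block and length offsets (-0.47, adjusted p = 0.0208). Lrp4 lies on chromosome 2, positions 91457511 to 91513779, plus strand.

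Ache, whose product breaks down acetylcholine in the cleft, was low in all libraries. It was counted at 96, 19, 137 and 107 fragments in EPS libraries 1 to 4 (4.94, 1.52, 7.09 and 4.94 CPM), and at 165, 0, 96 and 171 fragments in control libraries 1 to 4 (8.94, 0, 7.56 and 8.17 CPM). The 3 deep control libraries were above all EPS libraries, and the 0 in control replicate 2 is within what its depth allows. The log2 fold change was -0.71 (SE 0.46, interval -1.72 to 0.30, adjusted p = 0.445). It was -1.24 within replicates 1 and 2, against -0.39 within replicates 3 and 4 (difference with an adjusted p of 0.697). Ache lies on chromosome 5, positions 137287519 to 137294466, plus strand, and the 2 RNA genes annotated over it, Gm42456 and Mir8116, had 0 fragments.

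Same-numbered pairs gave mostly negative differences, with Musk apart. EPS was lower in all 4 same-numbered pairs in 6 of the 10 members, against 15.7% of all tested genes, and in 9 of 10 in the 3 pairs other than pair 2, against 26.8%. Musk was higher in those 3 pairs, as were 28% of all genes. Groups did not overlap in 2 members, both lower in EPS, against 4.83% of all genes with EPS lower, 9.32% with EPS higher and 14.1% in all. Without control replicate 2 the count was 6, again with EPS lower, against 11% of all genes with EPS lower and 13.8% with EPS higher. The members share libraries and are not independent of each other, so these counts are a description.

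**Figure D3:**
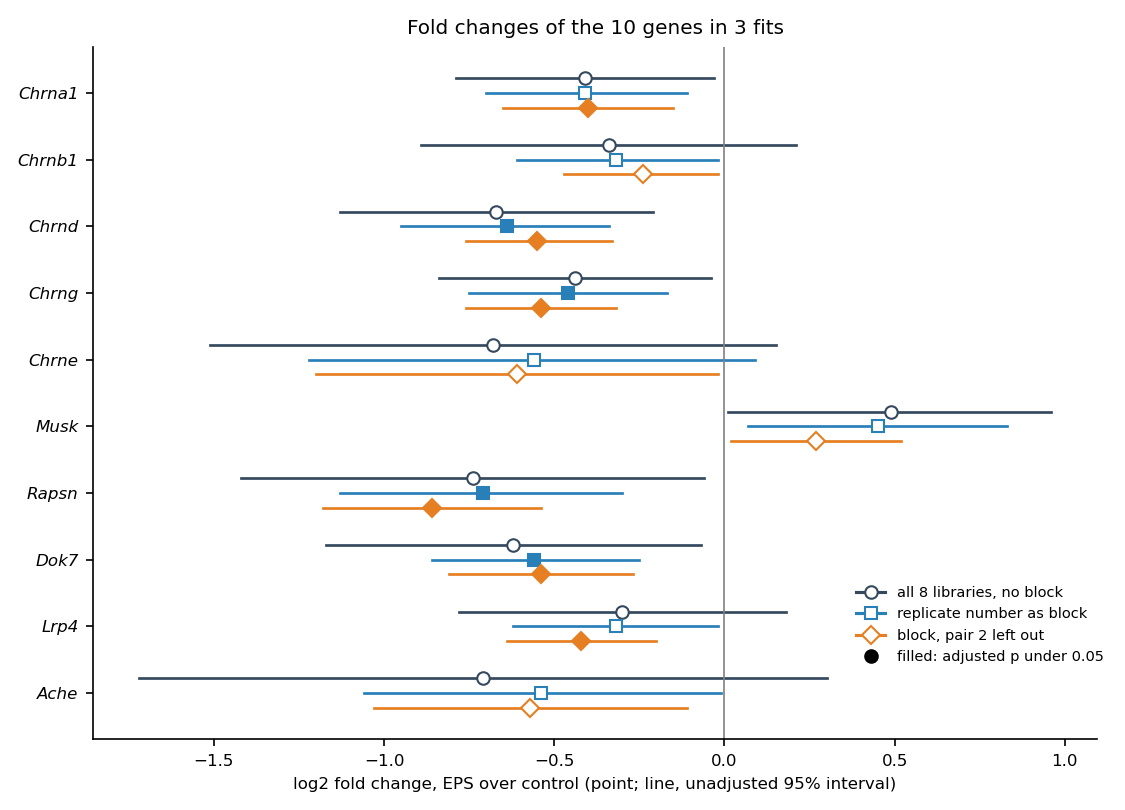
Log2 fold change (EPS over control) of each member in edgeR fits without a block (circles), with the replicate number as block (squares) and with the block and pair 2 left out (diamonds). Lines are unadjusted 95% intervals and filled symbols have an adjusted p under 0.05, which holds for 0, 4 and 6 members in these fits. Over all tested genes the shares called in the same fits were 3.06%, 12.1% and 17.3% (0.758%, 4.78% and 8.23% called lower).

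Ratios of Musk to other members inside each library need no scaling between libraries. They restate the fold changes above, since a ratio is higher also where its denominator is lower, and do not show the direction of Musk itself. They were chosen after the values were seen and are given with no test. The log2 ratio of Musk to Chrna1 fragments was -2.57, -2.66, -3.12 and -3.08 in EPS libraries 1 to 4, and -3.56, -4.27, -3.66 and -3.55 in control libraries 1 to 4. Every EPS library was above every control library. The ratio of Musk to Lrp4, its partner at the membrane, was between -1.18 and -0.82 in EPS libraries and between -2.38 and -1.57 in control libraries, and the ratio to Dok7 was between 1.77 and 3.43 in EPS and between 1.23 and 1.5 in control. Both ratios were likewise without overlap, whereas Musk over Rapsn overlapped through control replicate 2 (1.25 to 2.79 in EPS, 0.51 to 1.78 in control).

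Per transcript length, the subunit genes other than Chrne had the highest mean levels of the members. By the deposited FPKM, fragments per kilobase and M fragments, Chrna1 averaged 415 ± 28.3 in EPS and 539.7 ± 70.3 in control (SD, n = 4 each), above all other members in each library. Chrng (169.6 ± 38.1 in EPS, 236 ± 47.5 in control) and Chrnb1 (156 ± 35.4 in EPS, 208 ± 96.4 in control) came next and overlapped in range in both groups. Chrnd followed with 78.0 ± 10.8 FPKM in EPS and 114 ± 24.6 FPKM in control. Musk, Lrp4 and Rapsn formed an overlapping group, at 67.5, 54.5 and 43.6 FPKM in EPS and at 48.2, 70.4 and 69.5 FPKM in control, so that Musk had rank 5 among the members in EPS and rank 7 in control. Chrnd overlapped Musk and Lrp4 in EPS, and in control it overlapped Chrnb1, Lrp4 and Rapsn. Dok7 had 14.5 ± 3.80 FPKM in EPS and 20.9 ± 1.55 FPKM in control, below that group in every library. Ache and Chrne were lowest, at 1.91 and 1.23 FPKM in EPS and between 1.74 and 3.41 FPKM in the 3 deep controls, both listed at 0 in control replicate 2. Dividing CPM by the longest annotated transcript gave, in each group, the same order as FPKM, except that Rapsn and Lrp4 exchanged ranks 5 and 6 between these scales in control when replicate 2 was left out.

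**Figure D4:**
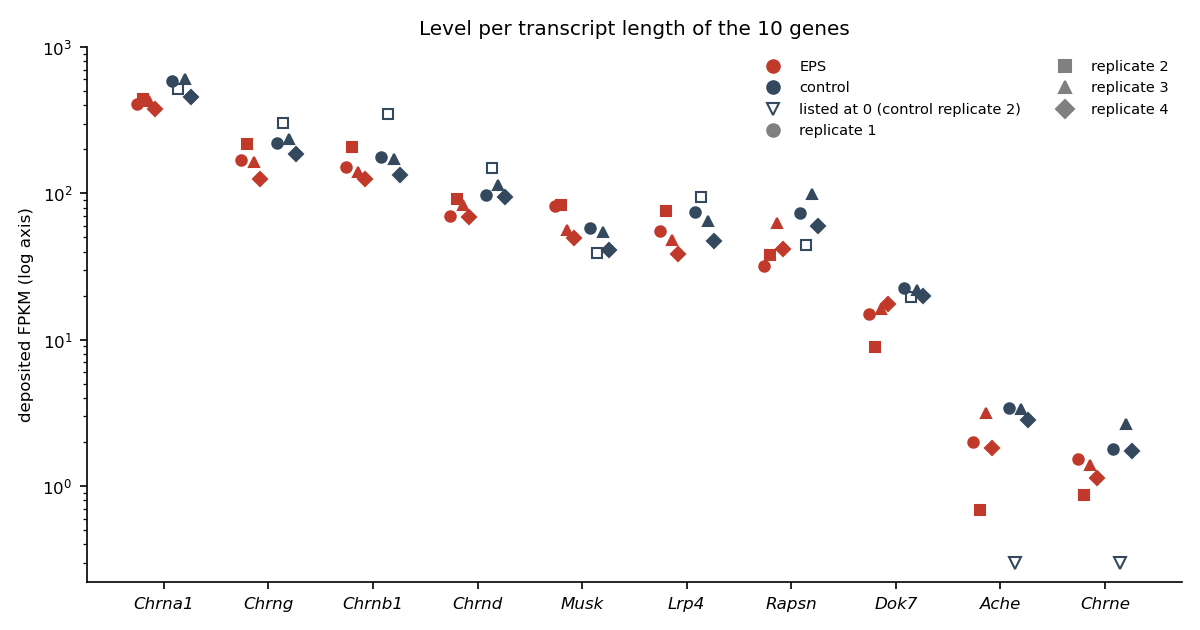
Deposited FPKM (log axis) of the 10 genes in EPS libraries (red, left of each pair) and control libraries (dark, right), ordered by the EPS mean, with marker shape for the replicate number. Open triangles at the foot mark Ache and Chrne, listed at 0 in the shallow control replicate 2; Chrna1 lies above and Ache and Chrne lie below all other members.

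Related gene lists, also chosen by name, show where the members stood among their partners, with counts from the same edgeR fit without the block and, after them, with it. Over all tested genes the shares were 2.3% called higher and 0.758% lower, 12.2% higher and 6.33% lower at an unadjusted p under 0.05, 7.31% higher and 4.78% lower with the block, and 49.1% with a negative fold change. Of 25 signalling and scaffold partners, 0 were called (3 at an unadjusted p under 0.05 higher and 5 lower; 2 higher and 3 lower with the block). Their median log2 fold change was -0.02. Hsp90ab1, a chaperone that binds rapsyn and the most abundant of the list over both groups (in control alone Nes and Macf1 were higher), had 6385 ± 2332 CPM in EPS and 3920.3 ± 921 CPM in control (log2 fold change 0.71, adjusted p = 0.218, and 0.0164 with the block). Agrin, the nerve and muscle ligand of LRP4, was at 48.3 CPM in EPS and 35.6 CPM in control (0.36, adjusted p = 0.424) and was named after its value was seen. Of 13 tested genes of the cleft and basal lamina, 0 were called (1 higher and 2 lower unadjusted; 1 and 1 with the block), with a median of 0.26; Lgals1, the most abundant over both groups (in EPS alone Hspg2 was higher), was at 1589 ± 494 CPM in EPS and 2073 ± 662 CPM in control (-0.39, adjusted p = 0.536).

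Of 11 tested genes of neuregulin signalling and ETS factors, a second nerve-derived input to receptor genes, 0 were called without the block (1 higher and 3 lower unadjusted) and 1 higher and 3 lower with it. Their median log2 fold change was -0.01, with 6 negative and 5 positive. Etv5 was the gene called higher with the block (0.88, adjusted p = 0.0334), and Erbb2, Erbb3 and Egr3 were lower. Etv5, Erbb2 and Egr3 were named for that call, after their values were seen. Erbb3, a neuregulin receptor, had 286 ± 31.9 CPM in EPS and 446 ± 30.6 CPM in control (SD, n = 4 each). Its groups did not overlap, at -0.64 on the log2 scale (adjusted p = 0.0515), and Erbb3 fell with the block (-0.65, adjusted p = 0.00807). Of 11 other nicotinic subunit genes only Chrnb2, a subunit of neuronal receptors, passed the filter. Chrnb2 rose at a low level, 4.33 ± 1.56 CPM in EPS and 1.71 ± 0.776 CPM in control (log2 fold change 1.63, SE 0.37, adjusted p = 0.0446). The highest control was the shallow replicate 2, at 2.84 CPM, and without it the control mean was 1.34 ± 0.234 CPM. Chrnb2 overlaps Adar on the opposite strand by 7252 bases, and Adar itself had a log2 fold change of 0.51, so the value of Chrnb2 is uncertain. Leaving out control replicate 1, 3 or 4, or any of EPS replicates 1, 2 and 3, ended the Chrnb2 call (adjusted p up to 0.202), as did limma on FPKM. The call also ended within replicates 3 and 4 (log2 fold change 1.35, adjusted p = 0.161 in edgeR).

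Of 14 tested genes of receptor assembly, glycosylation and congenital myasthenia, 0 were called in either fit (0 higher and 2 lower unadjusted, median 0.07); the most abundant, Plec, was at 4437 ± 976 CPM in EPS and 3951 ± 1051 CPM in control (0.17, adjusted p = 0.786). Of 13 tested genes listed for denervated muscle, members left out, 0 were called, with a median log2 fold change of -0.39. At an unadjusted p under 0.05, 2 were higher and 3 lower, and with the block 1 was higher and 4 lower. These 4 were Myog, Hdac9, Myh3 and Myh8. The list was drawn up as genes that rise in denervated muscle, which was not checked for each gene, Hdac9 included. Myh3, embryonic myosin and also one of the myotube markers above, had 5115 ± 891 CPM in EPS and 7252 ± 432 CPM in control (-0.50, adjusted p = 0.214), and it fell with the block (adjusted p = 0.0388).

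Of 15 tested muscle factors that act at or beside E-boxes, 1 fell, Mef2c (4 lower unadjusted, 4 lower with the block, 0 higher). A negative fold change was found in 14, among them the Id inhibitors Id1, Id2 and Id3 (-0.25, -0.27 and -0.22). Myog is also on the denervated muscle list above. Mef2c, a partner of the myogenic factors, had 561 ± 93.8 CPM in EPS and 1052 ± 124 CPM in control (log2 fold change -0.91, adjusted p = 0.0287), a call that ended when control replicate 1, 3 or 4, or EPS replicate 1, was left out (adjusted p up to 0.127, log2 fold change -1.01 to -0.83 over all 8 libraries left out in turn) and with limma on FPKM (-0.87). Mef2c also fell with the block (adjusted p = 0.00164) and in DESeq2 (adjusted p = 1.22e-05). The other 3 that fell with the block were named for that call, after their values were seen, and all bind E-boxes: Myod1 (log2 fold change -1.19, adjusted p = 0.0525, and 0.00262 with the block), Myog (-1.07, adjusted p = 0.0767, and 0.0154 with the block) and Tcf4 (-0.54, adjusted p = 0.104, and 0.0211 with the block). Other E-box binding factors of the list were not called in either fit, among them Myf5 (-0.36), Myf6 (-1.06), Tcf3 (-0.13), Tcf12 (-0.30), Snai1 (0.27) and Snai2 (-0.02), with adjusted p of 0.0833 (Myf6) to 0.638 (Tcf3) with the block.

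**Figure D5:**
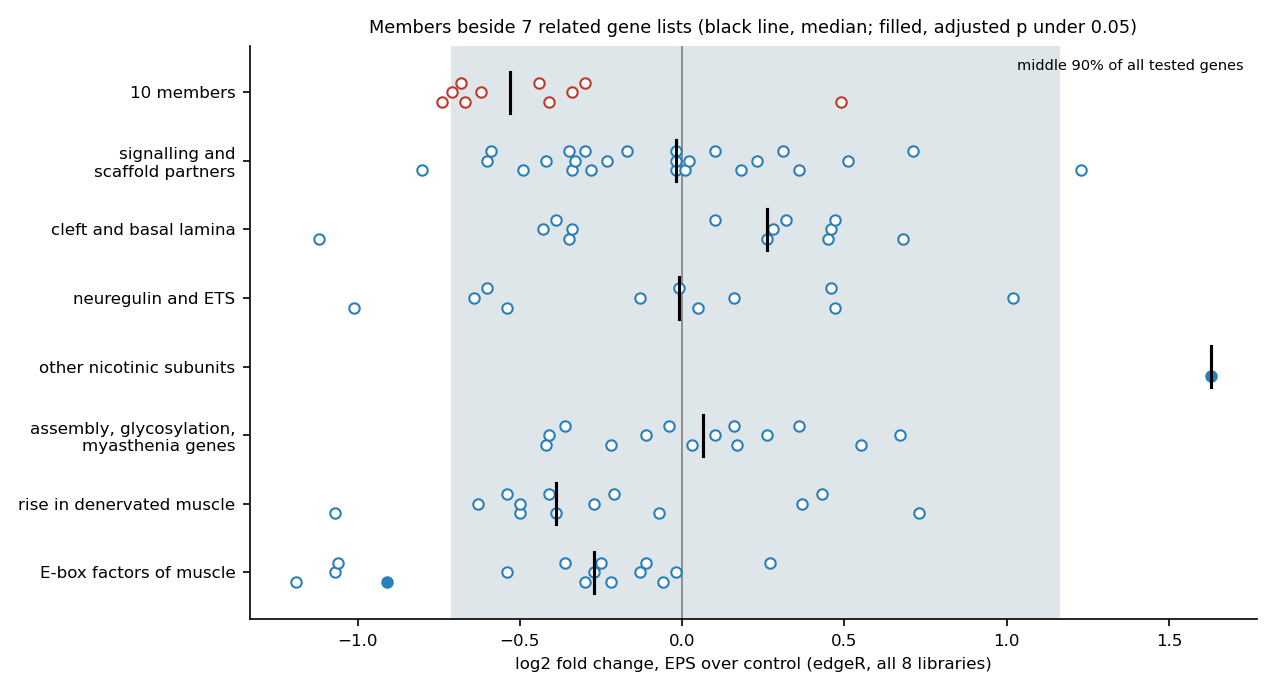
Log2 fold change (EPS over control, edgeR on all 8 libraries) of the 10 members (red) and of the tested genes of 7 related lists (blue), 1 point per gene, filled where the adjusted p is under 0.05. Black lines are medians, and the grey band, from -0.71 to 1.16, holds the middle 90% of all tested genes; the members' median is -0.53.

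The genes whose pattern was most like that of 4 members were taken from 10802 genes with a mean of at least 5 CPM, by the root mean square difference of mean-centred log2 CPM over the 7 deep libraries. For Chrna1 they were Cp (0.043), Slc44a2 (0.045) and Tmem109 (0.057). For Chrng they were Dag1 (0.059), which encodes dystroglycan, Gm16536 (0.065) and Mtss1l (0.072). For Musk they were Atp6v0a1 (0.051), Pnpla7 (0.057) and Camsap1 (0.059), with log2 fold changes of 0.40, 0.36 and 0.33. For Ache they were Cxcl12 (0.089), Mmp14 (0.159) and Klhdc8b (0.163). None of these 12 genes was called, at adjusted p of 0.117 to 0.741 in edgeR. Among the members themselves the closest were Chrnb1 and Lrp4 (0.11), Chrna1 and Chrnd (0.12) and Chrnd and Chrng (0.125), and the most distant were Musk and Ache (1.018).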

How the data were processed

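C2C12 myotubes with and without EPS were profiled by RNA sequencing of total RNA with a stranded kit, per the labels' protocols. Reads were processed with Cuffdiff 2.2.1, Cufflinks and STAR 2.5.1 on build mm10, per the submitters' processing notes; annotation release and strand setting were not given in the sources used here. Per the file headers, the deposited table holds 1 estimated count of fragments per gene and library and FPKM values scaled by Cuffdiff, and 2 further columns of scaled fragments were not used. Of the deposited estimated counts above 0, 93.3% were whole, and all were rounded. Symbols (48051 of 48432 identifiers) and positions came from GENCODE M21 on the same build, and promoter sequences from RefSeq (GRCm38.p6). In all, 46 genes that the authors' Cuffdiff run skipped in any library were left out.

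Counts were filtered with filterByExpr (minimum count 10, total 15), scaled by TMM and tested with edgeR 4.0.16's quasi-likelihood test (R 4.3.3) on 8 libraries without covariates, with Benjamini-Hochberg adjustment over 13987 genes and a threshold of 0.05. SEs are approximate, from each fold change and the F value of its test. CPM uses TMM-scaled totals, and log2 CPM a prior count of 2. Alternatives were DESeq2 1.42.0, limma 3.58.1 on log2(FPKM + 0.1) and log2(FPKM + 1), RLE scaling, no filter, the replicate block, length offsets, sets of replicates and each library left out. Sets of replicates were contrasted in a fit of all 8 libraries, with the spread pooled over them. The sets, replicates 1 and 2 and replicates 3 and 4, are not named by the labels. Deviations from the control mean correlated with log2 transcript length at r = 0.108, 0.161, -0.171 and -0.142 in EPS libraries 1 to 4. In control libraries 1 to 4 r was -0.0151, 0.137, -0.175 and -0.164.

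Replicate numbers come from the sample titles; every same-numbered pair correlated above 0.1 across genes (0.3, 0.214, 0.286 and 0.297 for numbers 1 to 4), so the numbers were taken to pair the libraries. Libraries 3 and 4 also correlated across numbers (0.253 and 0.231). Named genes were all 10 members; up to 4 called genes of each related list, or else its most abundant gene; and the 3 genes nearest to each of 4 members. Members and lists were chosen with earlier results of these data known.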

Additional observations from a re-analysis of the deposited data

Results flagged for a closer look

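Among 20 sets of 4 values (10 genes in 2 groups), 3 had a library far from the rest of its group by Dixon's criterion at 95% (critical value 0.829), which chance alone exceeds in about 1 of 20 sets. Chrnd in EPS replicate 2 was at 383 CPM, above the other EPS libraries, with a gap of 0.869 of the group's range. Chrnd in control replicate 2 was at 761 CPM, above the other controls, with a gap of 0.883. Ache in control replicate 2 was at 0 CPM, below the other controls, with a gap of 0.845. Control replicate 2 is the shallow library, with 268 and 0 fragments for these genes. Without it the log2 fold change was -0.46 for Chrnd and -0.82 for Ache.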

How the results depend on the processing

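Without a block no member was called under RLE scaling, without the filter, with limma, with length offsets, within either set of replicates or with any 1 library left out, and DESeq2 called 1. The block called 4 members, the block with pair 2 left out 6, and the block with length offsets 6. These 3 fits called 12.1%, 17.3% and 13.7% of all genes (4.78%, 8.23% and 6.49% lower), and DESeq2 called 6.63%. Among values of single members under alternatives, 171 kept sign and side of the threshold, 17 became called with the same sign and 2 changed sign: on log2(FPKM + 0.1), Chrne was at 0.40 and Ache at 0.38, where both are listed at 0 in control replicate 2. For all genes, 428 calls became 927 with DESeq2, and 101 and 181 with limma at pseudocounts of 0.1 and 1. They became 1691 with the replicate block, 2457 with the block and pair 2 left out, and 1907 with length offsets and the block. There were 1766 calls within replicates 1 and 2 and 194 within replicates 3 and 4, with the spread pooled over all libraries. With 1 library left out there were 119 to 537. The lowest were 119, 120, 130 and 139, without control replicate 3, control replicate 1, control replicate 4 and EPS replicate 1. The 2 called genes of the related lists became 6 without the filter, 11 with DESeq2, 0 with either limma setting, 20 with the replicate block, 35 with pair 2 left out, 10 with length offsets, 32 with offsets and the block, 17 and 1 within the sets of replicates, and 0 to 6 with 1 library left out. These counts are to be read beside those of all genes above. Plec changed sign to -0.11 with the block and pair 2 left out, -0.29 within replicates 3 and 4, -0.06 with length offsets, -0.02 with offsets and the block, and ranged from -0.01 (without control replicate 2) to 0.25 with 1 library left out. The difference in the log2 ratio of Chrng to Chrne was 0.02, but 0.48 with 2 fragments added, -0.88 from FPKM + 0.1, and -0.29 to 0.38 with 1 library left out. The causes of these shifts were not tested. Depth limits Chrne and Ache in control replicate 2.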
